A study of Caenorhabditis elegans with 2 samples.

Results

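The nuclear hormone receptor genes of Caenorhabditis elegans were examined as places where the tagged receptor NHR-12 gave ChIP-seq peaks. Members were the nuclear protein-coding genes of the Ensembl WBcel235 annotation whose symbol starts with nhr-, together with unc-55, odr-7, fax-1 and sex-1. daf-12 was left out of the family and counted with its pathway instead. The rule gave 273 receptor genes among 19973 nuclear protein-coding genes. It rests on gene symbols alone, so a receptor gene with another kind of name is not counted. Of the members, 14 belong to subfamilies with counterparts in other animals and are called conserved, and the other 259 are called expanded.

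Chromatin immunoprecipitation followed by sequencing recovers DNA that lay close to a chosen protein and reports places of enrichment as peaks, each with a summit where the enrichment is highest. The 2 samples are biological replicates of 1 group: whole L2 larvae of strain OP318, sexes pooled, which carries unc-119(ed3) III and the integrated transgene wgIs318 with eGFP-tagged nhr-12. The antibody label reads nhr-12, while the description names eGFP-nhr-12, and the promoter of the transgene is not given in the sources used here. With 1 group there is no second condition, so no test was run and the replicates are the measure of error. Animals lacking the tag were not analysed here. In whole animals, strong occupancy in few cells and weak occupancy in many cannot be told apart.

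Nuclear hormone receptors are transcription factors that join a zinc-finger DNA-binding domain to a domain that can hold a small lipophilic ligand, and many act as dimers on short DNA elements. C. elegans carries far more of them than insects or mammals. Conserved members act in moulting, sex determination, cell fate and neuronal identity, while much of the remainder is related to vertebrate HNF4 and includes known regulators of fatty acid and propionate metabolism.

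The sequences shown lie under strong pooled summits at receptor genes and were chosen by how the replicates ranked those summits. The first 4 genes had a summit in the top 10% of both replicates with the replicate summits at most 200 bp apart, and the last 2, nhr-31 and nhr-92, had a strong summit in replicate 2 and a weak one in replicate 1. Each is the stretch within 50 bases of the pooled summit, cut short where an annotated UTR begins, on WBcel235 (ce11), written 5′ to 3′ on the strand of the gene. Capitals mark the motif GAGAGA or its reverse complement, and lower case marks all other bases.
nhr-47, chrV:5505179-5505252, plus strand: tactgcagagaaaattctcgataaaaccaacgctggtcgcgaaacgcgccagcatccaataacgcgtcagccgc
nhr-48, chrX:15707586-15707686, plus strand: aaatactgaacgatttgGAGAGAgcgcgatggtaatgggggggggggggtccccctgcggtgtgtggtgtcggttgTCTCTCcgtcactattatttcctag
nhr-87, chrIV:1624412-1624512, plus strand: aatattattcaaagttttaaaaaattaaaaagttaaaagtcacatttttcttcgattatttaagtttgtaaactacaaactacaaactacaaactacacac
nhr-256, chrV:1743593-1743693, plus strand: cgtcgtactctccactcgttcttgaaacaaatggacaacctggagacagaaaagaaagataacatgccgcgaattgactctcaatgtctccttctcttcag
nhr-31, chrIV:8029896-8029996, minus strand: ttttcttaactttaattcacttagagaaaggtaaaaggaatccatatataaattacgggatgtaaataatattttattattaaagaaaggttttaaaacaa
nhr-92, chrIV:1619810-1619910, plus strand: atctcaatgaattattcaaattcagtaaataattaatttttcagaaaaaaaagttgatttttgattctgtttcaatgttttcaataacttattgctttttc

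These 6 stretches differ widely in base composition. G and C made up 52.7% of the stretch at nhr-47, which is 74 bases long, and of the full windows within 50 bases of the summit 55.4% at nhr-48 and 44.6% at nhr-256. For the other 3 windows the share was 20.8% at nhr-87, 20.8% at nhr-31 and 19.8% at nhr-92. The nhr-48 window holds a long run of G, and the nhr-87 window ends in a repeated stretch. The median over all 139 receptor genes with a pooled summit was 27.7%, against 28.7% over all protein-coding genes with one, and its quartiles were 23.8% and 33.7%. The windows of nhr-48 and nhr-256 and the stretch of nhr-47 lie above this range and the windows of nhr-87, nhr-31 and nhr-92 below it. That range is of weak and strong summits together. Over all genes in the pooled top 10% the median was 32.7%, with quartiles of 25.7% and 46.5%. The window of nhr-256 lies inside these quartiles, and the others stay outside. Windows at replicate 1 summits were richer in G and C over all genes, with a median of 33.7% against 27.7% in replicate 2.

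Receptor genes carried summits about as often as other protein-coding genes. A gene was counted when a summit lay within 1000 bp of its 5′ end. The thresholded list, which holds 228 peaks passing the submitters' reproducibility threshold, had a summit at 2 of 273 receptors (0.733%, exact 95% interval 0.0888% to 2.62%), and the share over all protein-coding genes was 0.926%. The pooled relaxed list, which by design holds background beside true enrichment, had one at 139 receptors (50.9%, 44.8% to 57.0%) against 46.1% of all genes. Replicate 1 had one at 128 (46.9%) against 50.1%, and replicate 2 at 133 (48.7%) against 46.6%. The receptors were above the background in the pooled and replicate 2 lists and below it in replicate 1, and each background share lies inside the receptors' interval. The intervals cover sampling of genes only.

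Fewer receptors had a summit in both replicates. That held for 71 genes (26.01%), against 27.4% of all genes. The strongest summits of the replicates lay within 200 bp of each other at 23 of them, which is 8.42% of receptors against 10.6% of all genes. No relaxed list had a summit near 76 receptors (27.8%), against 28.9% of all genes. Receptors thus sat near the background share in each of these counts, and most of the family had no summit that both replicates placed at the same spot.

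The share of receptors with a strong summit was also close to that of all genes. Summits were ranked by the deposited signal value, rank 1 being the strongest, and the strongest 10% of each list is called its top 10%. The best summit lay in the top 10% of the pooled list at 22 receptors (8.06%), against 7.81% of all genes. It did so in replicate 1 at 19 (6.96%), against 8.10%, and in replicate 2 at 21 (7.69%), against 7.14%. In both replicates at once it did so at 7 receptors (2.56%), against 2.31% of all genes. Among genes with a summit, the median rank, as a percentage of list length with low values strong, was 48 for receptors and 40.05 for all genes in the pooled list. It was 41.9 and 41.05 in replicate 1 and 46.4 and 40.8 in replicate 2. The typical receptor summit thus ranked below the typical gene summit in the pooled and replicate 2 lists and at about its level in replicate 1. The gap between both medians depends on the window: at 2000 bp the pooled values were 35.01 and 33.96, and with the upper 50% of peaks alone they were 20.75 and 20.93, with the receptors then slightly stronger.

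**Figure D1:**
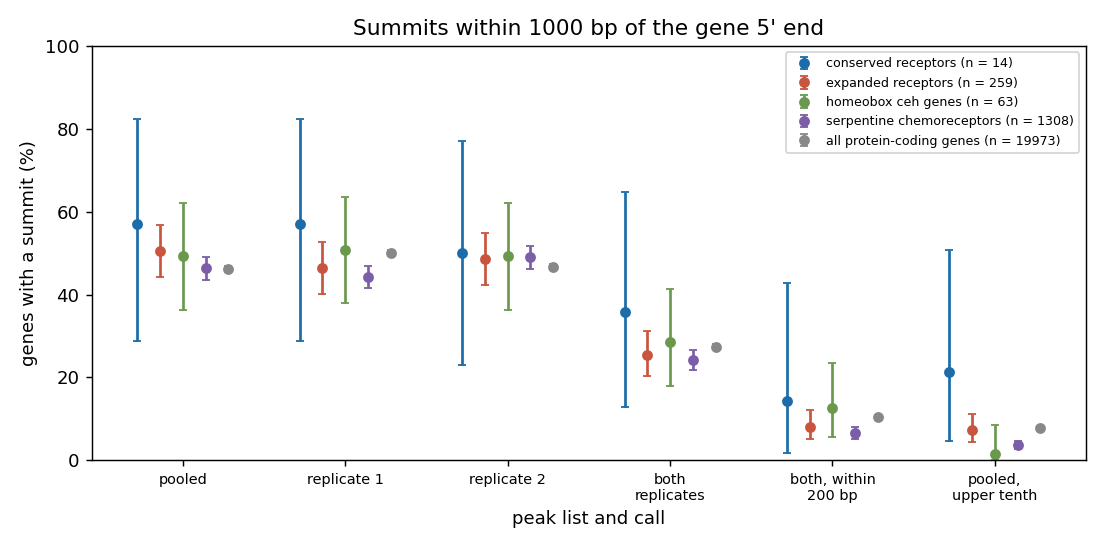
Share of genes (%, points) with a summit within 1000 bp of the 5′ end, with exact 95% intervals (bars), for conserved and expanded receptors, homeobox ceh genes, serpentine chemoreceptors and all protein-coding genes, by peak list and call. Receptor shares lie close to all genes in the first 3 lists, 46.3% to 57.1%, and the intervals of the 14 conserved receptors are wide.

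The receptors with the strongest summits of the pooled list were nhr-47 and nhr-48, which are the members in the thresholded list. nhr-47 (WBGene00003637, V: 5505253 to 5509956, plus strand), an expanded receptor, had a summit at -24 bp, where negative values lie upstream of the 5′ end. Its signal value was 44.9 in the pooled list (rank 142), 9.21 in replicate 1 (rank 860) and 34.5 in replicate 2 (rank 122), and the replicate summits were 2 bp apart. This summit lies in the exon of an ncRNA gene, C24G6.10 (WBGene00195993, V: 5505124 to 5505261, minus strand), and at -372 bp from dnj-19, a gene for a DnaJ-type chaperone, so it cannot be given to nhr-47 alone. nhr-48 (WBGene00003638, X: 15708213 to 15716875, plus strand), a conserved receptor of the DAF-12 group, had an intergenic summit at -577 bp. Its signal was 37.2 in the pooled list (rank 228), 9.72 in replicate 1 (rank 712) and 27.0 in replicate 2 (rank 254). In the single replicates other receptors ranked above them: nhr-142, nhr-17, nhr-68, nhr-87 and nhr-256 in replicate 1, and nhr-31, nhr-92 and nhr-87 above nhr-48 in replicate 2. The thresholded list shares all 228 of its summits with the 228 strongest pooled peaks, so nhr-48 is its weakest entry and nhr-31, at rank 277, is the first receptor outside it. Another thresholded summit, with signal 39.0 (rank 196), lay at -1557 bp from nhr-21, beyond the distance used.

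Beside these, 6 more receptors ranked among the 500 strongest pooled peaks, which makes 8 in all (2.93%), against 2.05% of all genes. They split by how the replicates ranked them. nhr-87 (IV: 1624029 to 1626705) had an intronic summit at 433 bp with signal 33.6 pooled (rank 307), 10.4 in replicate 1 (rank 579) and 28.1 in replicate 2 (rank 225). nhr-35 on X, at -412 bp, had 32.2 pooled (rank 344), 8.55 in replicate 1 (rank 1107) and 25.4 in replicate 2 (rank 333). nhr-256 on V, at -128 bp, had 31.6 pooled (rank 372), 10.1 in replicate 1 (rank 634) and 19.6 in replicate 2 (rank 1287). All 3 were strong in both replicates, with the replicate summits 59, 105 and 119 bp apart.

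nhr-31, nhr-92 and nhr-181 were strong in replicate 2 and not at the same place in replicate 1. nhr-31, known for its part in the growth of the excretory cell, had 34.9 pooled at -433 bp and 29.3 in replicate 2 (rank 198), but 2.95 in replicate 1 (rank 22547), 766 bp away. nhr-92 had 30.2 pooled at -234 bp (rank 442) and 28.3 in replicate 2 (rank 223), but 3.77 in replicate 1 (rank 14398). nhr-181 had 29.5 pooled at 889 bp (rank 482), 24.5 in replicate 2 (rank 395) and 7.01 in replicate 1 (rank 2274), with the replicate summits 1854 bp apart. The pooled rank of these 3 genes therefore followed replicate 2. nhr-281, with 26.4 pooled (rank 729) and 22.9 in replicate 2 (rank 539), had no summit in replicate 1 within the distance used. nhr-22, with 24.9 pooled (rank 923), was ranked 3276 and 1819 by the replicates, 79 bp apart, and completes the 10 strongest receptors of the pooled list.

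The opposite case also occurred. nhr-142 had the strongest receptor summit of replicate 1, with signal 15.4 (rank 174), but 10.4 in replicate 2 (rank 15905), 1366 bp away, and 23.6 pooled (rank 1210). Its summit is at -500 bp and lies nearer to F44E7.9 (WBGene00018431), at -177 bp. nhr-68, a regulator of propionate breakdown, had 12.4 in replicate 1 (rank 341), 8.42 in replicate 2 (rank 25550) and 10.4 pooled (rank 23258). nhr-17 had 12.6 in replicate 1 (rank 324), 11.7 in replicate 2 (rank 11762) and 11.9 pooled (rank 17247). The strongest 228 peaks of replicate 2 held 4 receptors (1.47%, 0.401% to 3.71%), nhr-47, nhr-31, nhr-92 and nhr-87, against 0.896% of all genes. Those of replicate 1 held nhr-142 alone (0.366%, 0.00927% to 2.02%), against 0.871%. The strongest 228 of both replicates held 0 of 273 receptors, which allows a share of up to 1.10%, against 0.365% of all genes, so the count of 0 is too small to set receptors apart.

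**Figure D2:**
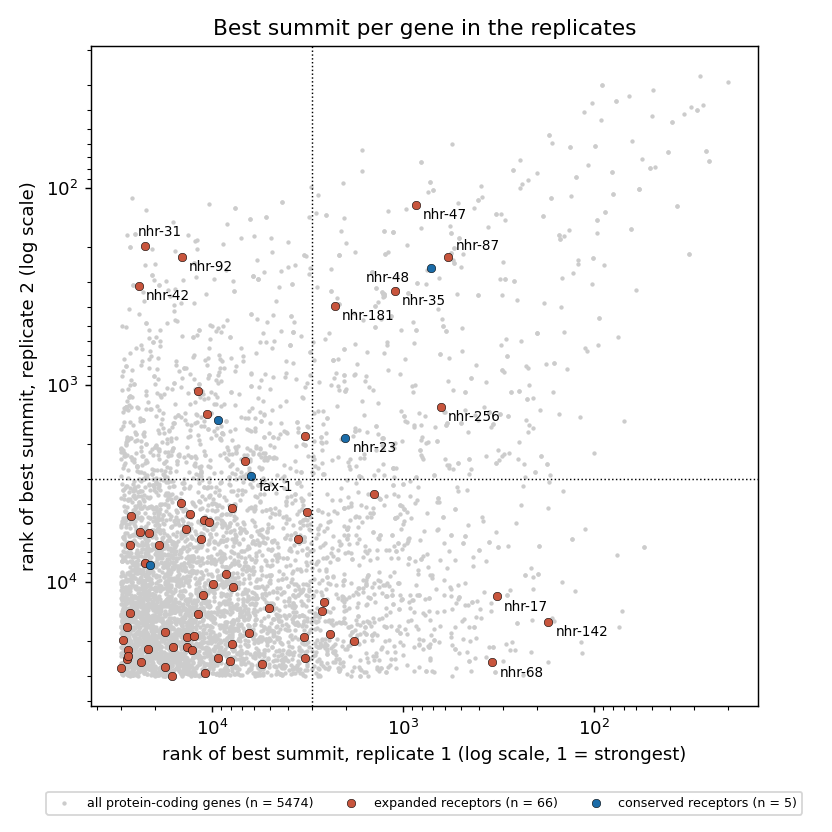
Rank of the best summit near each gene in replicate 1 (x axis) and replicate 2 (y axis), both log scales with rank 1 strongest, for the 71 receptors (colours) and 5474 protein-coding genes (grey) with a summit in both. Dotted lines mark the top 10%, and 7 receptors lie inside both.

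The 7 receptors in the top 10% of both replicates were nhr-87, nhr-48, nhr-47, nhr-35, nhr-256, nhr-23 and nhr-181. All but nhr-181 also had replicate summits within 200 bp, which makes 6 (2.20%), against 1.76% of all genes. By the worse of their replicate ranks, nhr-22, nhr-1 (ranks 1422 and 3575) and nhr-3 (ranks 3200 and 4405) came next. Across the 71 receptors with a summit in both replicates the ranks were weakly related, with Spearman's rho 0.265, against 0.224 over 5474 genes. Where the replicate summits lay within 200 bp it was 0.708 over 23 receptors, against 0.388 over 2113 genes. These values are across genes, which share libraries and are not replicates. A pair of strong summits at different spots of a gene is not a repeat of the same peak, and the median distance between the replicates' best summits was 336 bp at receptors and 341 bp over all genes.

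With 14 conserved receptors, the shares of conserved and expanded receptors with a summit could not be told apart. In the pooled list 8 of 14 conserved receptors had one (57.1%, exact interval 28.9% to 82.3%), and 131 of 259 expanded receptors did (50.6%, 44.3% to 56.8%). Replicate 1 gave 8 and 120 genes (57.1% and 46.3%), and replicate 2 gave 7 and 126 (50% and 48.6%). The top 10% of the pooled list held 3 conserved receptors (21.4%, 4.66% to 50.8%) and 19 expanded receptors (7.34%, 4.47% to 11.2%). In replicate 1 it held 2 conserved (14.3%, 1.78% to 42.8%) and 17 expanded receptors (6.56%, 3.87% to 10.3%). In replicate 2 it held 4 (28.6%, 8.39% to 58.1%) and 17 (6.56%, 3.87% to 10.3%). In the top 10% of both replicates were 2 (14.3%, 1.78% to 42.8%) and 5 (1.93%, 0.630% to 4.45%). The intervals overlap in each of these comparisons, so a difference of this size cannot be resolved with 14 genes. The difference in the top 10% of the pooled list, 14.1 percentage points, turned to -5.02 when summits within 500 bp were used. The pooled summits of nhr-48, nhr-23 and nhr-91 lie at -577, -611 and 653 bp.

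Among conserved receptors of development, nhr-23 had the best repeat. nhr-23 (WBGene00003622, I: 7214745 to 7221299), the worm counterpart of ROR and a regulator of moulting, had a pooled signal of 21.5 (rank 1876), 7.25 in replicate 1 (rank 2009) and 18.3 in replicate 2 (rank 1845), with the replicate summits 192 bp apart. nhr-91, related to GCNF, had 20.3 pooled (rank 2445) and 19.0 in replicate 2 (rank 1501), but 4.55 in replicate 1 (rank 9264). fax-1, a PNR-type receptor of interneuron identity, ranked 2895 in replicate 2, 6232 in replicate 1 and 11486 in the pooled list. Within 1000 bp, these 2 receptors were inside the top 10% in replicate 2 and outside it in replicate 1. The gene body of fax-1 held 3 summits in replicate 1, the best at rank 779 and beyond the distance used. It held 1 in the pooled list (rank 11571) and 0 in replicate 2.

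The remaining conserved receptors had weak summits or none within 1000 bp. nhr-85, related to E75 and Rev-Erb, ranked 12174 in the pooled list, nhr-111 14128, nhr-8, a relative of DAF-12, 18632 and sex-1, which takes part in sex determination as an X-signal element, 19449. nhr-67, the tailless counterpart, and nhr-25, the FTZ-F1 counterpart, had a summit in replicate 1 alone (ranks 11736 and 29754), and nhr-6, the NR4A counterpart, in replicate 2 alone (rank 19415). unc-55, a COUP-TF receptor of motor neurons, nhr-41, of the TR2/TR4 group, and nhr-239 had none in any relaxed list. The distance matters for some of these genes, since summits deeper in the gene body are not counted. At nhr-8 replicate 2 had a summit with signal 29.1 (rank 200) at -1103 bp, and nhr-41 had 6 pooled summits inside its long gene body, the best at rank 6263. Its body also held 5 summits in replicate 1, the best at rank 1127, and 7 in replicate 2, the best at rank 3018. nhr-25 had 5 body summits in replicate 1, the best at rank 1396, and 0 in the other lists. nhr-67 had 2 in the pooled list (best rank 8001) and 2 in replicate 2 (best rank 6043), and nhr-6 had 3 in replicate 2 (best rank 7024). nhr-85 had 4 in the pooled list (best rank 6204), 5 in replicate 1 (best rank 2428) and 2 in replicate 2 (best rank 18940).

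**Figure D3:**
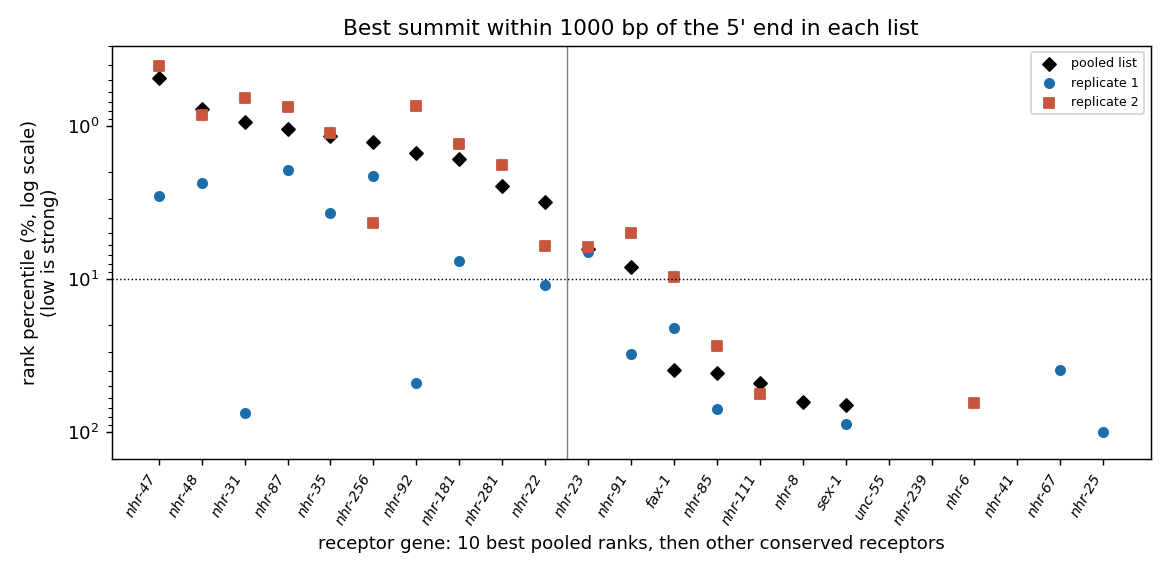
Rank of the best summit as a percentage of list length (log scale, strong at the top) in the pooled list (diamonds), replicate 1 (circles) and replicate 2 (squares), for the 10 receptors with the best pooled rank and the other 13 conserved receptors (a missing symbol means no summit). nhr-31 and nhr-92 have replicate 1 values of 75.2 and 47.99, far below their replicate 2 values of 0.660 and 0.743.

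Groups of receptors by known role are small, and their counts are given beside the shares of all genes, 46.1% pooled, 50.1% in replicate 1, 46.6% in replicate 2 and 7.81% in the pooled top 10%. Of 14 metabolic receptors, 9 had a pooled summit (64.3%), 9 a summit in replicate 1 (64.3%) and 6 in replicate 2 (42.9%). In the top 10% of the pooled list were 0 of 14, which allows a share of up to 21.4%, and in that of replicate 1 was 1 of 14, nhr-68. nhr-10, which acts with nhr-68 in propionate breakdown, had 18.6 pooled (rank 3696). nhr-114, which links diet to germline survival, had rank 6877, nhr-49, a regulator of fatty acid use, 15.7 (rank 7423), nhr-86 rank 10876, nhr-64 rank 21970, nhr-80, a regulator of desaturase genes, rank 27815 and nhr-76 rank 28489. nhr-13 and nhr-28 had a summit in replicate 1 alone, and nhr-62, nhr-66 and nhr-69 had none in any relaxed list. Of 9 developmental receptors, 4 had a pooled summit, 7 a summit in replicate 1 and 4 in replicate 2. nhr-23 was their 1 member in the top 10%, nhr-40 ranked 25146 in the pooled list, nhr-2 had a summit in replicate 1 alone (rank 11075) and nhr-60 had none in any relaxed list. Of 4 neuronal receptors, fax-1 and odr-7, which specifies the AWA olfactory neurons, had a pooled summit, and that of odr-7 was near the end of the list (rank 29191 of 29431).

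Genes that work with these receptors or with DAF-12 are also few, and daf-12 itself is counted among them. Of 11 cofactor and ligand synthesis genes, 7 had a pooled summit (63.6%), against 46.1% of all genes, and 0 were in the top 10%, against 7.81%. Each replicate had 1 of the 11 in its own top 10%, and 0 of 11 were there in both. The best were din-1, a corepressor of DAF-12, with 18.2 (rank 4138), and ncr-1, a sterol transport gene, with 16.7 (rank 5831). The pooled summit of din-1 was at -978 bp and that of replicate 1 at -491 bp (rank 1465), with none in replicate 2. For ncr-1 the replicate ranks were 9226 and 3417. Of 8 known targets of NHR-49 or of NHR-10 and NHR-68, 6 had a pooled summit (75%) and 2 were in the top 10% (25%, 3.19% to 65.1%). These were acs-2, an acyl-CoA synthetase gene, with 22.2 (rank 1627), and fat-6, a desaturase gene, with 21.6 (rank 1843). Replicate 2 ranked the summits of both far lower, at 20875 and 11676, and replicate 1 at 555 and 3559. In the top 10% of replicate 1 was 1 of the 8 targets, and in that of replicate 2 were 0, so a strong summit at both acs-2 and fat-6 was not seen in either replicate.

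Most receptors lie on chromosome V, with 167 of 273, and their share there was close to that of their neighbours. On V 79 of 167 receptors had a pooled summit (47.3%, 39.5% to 55.2%), against 45.1% of other genes on V. In replicate 1 the shares were 43.1% and 47.6%, and in replicate 2 49.1% and 45.6%. The top 10% of the pooled list held 9 receptors on V (5.39%), and 5.39% of other genes on V. Chromosome V thus had a lower share in the top 10% for receptors and other genes alike than the 7.81% of all genes.

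Receptors on X had the highest share and those on I the lowest, in the pooled list and in replicate 2. On X 19 of 26 had a pooled summit (73.1%, 52.2% to 88.4%), against 53.5% of other X genes, and the replicates gave 69.2% and 65.4% against 54.3% and 54.9%. On I 8 of 24 had a pooled summit (33.3%, 15.6% to 55.3%), against 46.1%, and the replicates gave 25% and 29.2% against 52.6% and 46.6%. The direction was the same in both replicates on X and on I. No summit in any relaxed list was found for 1 of 26 receptors on X (3.85%, 0.0973% to 19.6%), against 22.7% of other X genes, and for 13 of 24 on I (54.2%, 32.8% to 74.4%), against 28.2%. These 2 other-gene shares lie outside the receptors' interval, as does that of replicate 1 on I (9.77% to 46.7%). Over all chromosomes and counts it lay outside in 6 of 96 comparisons, which share genes and lists. In the top 10% of the pooled list were 5 receptors on X (19.2%, 6.55% to 39.4%), against 8.10% of other X genes, which is inside the interval. On IV the share was 63.6% in the pooled list, against 48.2%. The replicates gave 48.5% and 45.5%, against 50.7% and 48.98%, so this pooled excess was not seen in either replicate. The top 10% held 15.2%, 15.2% and 12.1% of IV receptors in the pooled list and replicates 1 and 2. The other genes had 8.44%, 6.74% and 7.48%, inside the intervals. Among the 500 strongest pooled peaks were 3 of 33 (9.09%, 1.92% to 24.3%), against 1.75%. The strongest peaks of replicate 2, as many as in the thresholded list, also held 3, against 0.647%. Both other-gene shares lie outside the interval. The strongest of replicate 1 held 0 of 33, against 0.831%. On II, with 15 receptors, 8 had a pooled summit and 8 one in replicate 2 (53.3% each), against 38.5% and 38.002% of other genes, and 11 had one in replicate 1 (73.3%, 44.9% to 92.2%), against 46.04%. Both replicates had one at 7 of the 15 (46.7%, 21.27% to 73.4%), and the 21.23% of other genes is just outside that interval. On III, with 8 receptors, the shares were 50%, 62.5% and 50% in the pooled list and the replicates, against 47.4%, 52.5% and 47.9%.

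**Figure D4:**
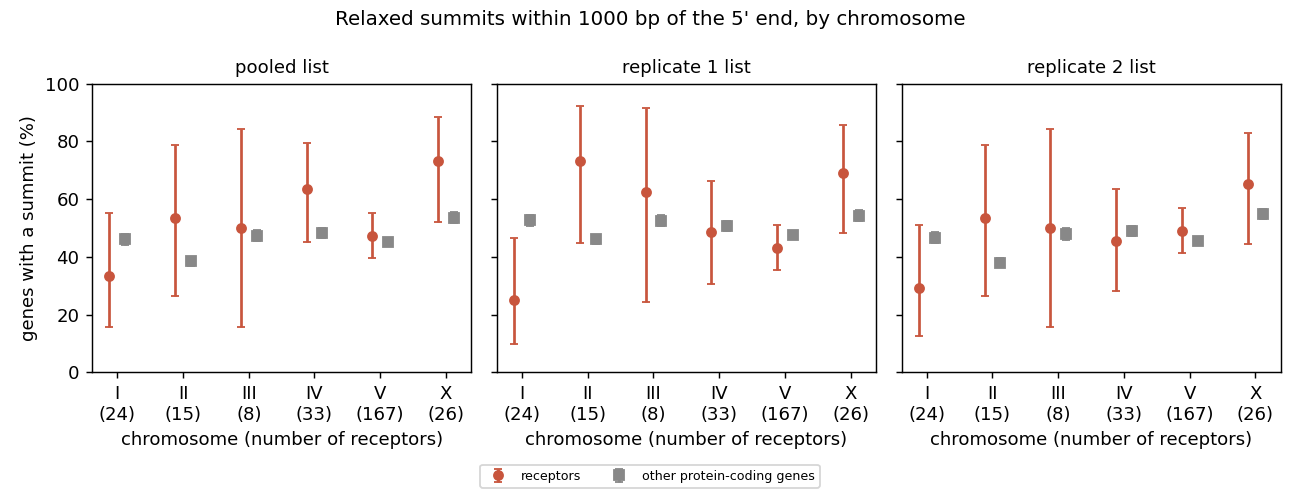
Share of receptors (circles) and of other protein-coding genes (squares) with a relaxed summit within 1000 bp of the 5′ end, by chromosome (number of receptors in brackets), in the pooled and replicate lists, with exact 95% intervals. Receptors on X lie above and receptors on I below the other genes of their chromosome in all 3 lists.

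Many expanded receptors sit in tight groups, and these had weaker summits. With a distance of 10 kb, chosen after the values were seen, 150 receptors had another receptor's 5′ end that close, all of them expanded and 121 of them on V. Among grouped receptors with a summit the median rank was 54.9% of the pooled list, and among the other 123 receptors 39.0%. In replicate 1 the values were 53.8% and 32.3%, and in replicate 2 53.9% and 29.8%. The top 10% of the pooled list held 5.33% of grouped receptors (interval 2.33% to 10.2%) and 11.4% of the others (6.36% to 18.4%), and these intervals overlap. On V alone the median ranks were 54.9% and 38.5%. The share with any pooled summit did not follow this order on V, where it was 48.8% of grouped receptors and 43.5% of the others. How the submitters treated reads that map to more than 1 gene copy is not given in the sources used here.

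A group of 4 on chromosome IV held some of the stronger summits. nhr-122 (IV: 1613892 to 1616774), nhr-92 (IV: 1620094 to 1623753), nhr-87 and nhr-146 (IV: 1626805 to 1630756) lie in this order on the plus strand, and the last 3 were in the top 10% of the pooled list. nhr-122, whose 5′ end is 6202 bp from that of nhr-92, had 16.5 pooled at -484 bp (rank 6197), rank 7941 in replicate 2 and no summit in replicate 1. nhr-146 had 21.9 pooled (rank 1743), 6.76 in replicate 1 (rank 2605) and 11.4 in replicate 2 (rank 12627). Of these neighbours nhr-87 alone was strong in both replicates.

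Receptors were also set beside 2 other families. Homeobox ceh genes, which also encode transcription factors, had a pooled summit at 31 of 63 genes (49.2%), and serpentine chemoreceptor genes, another expanded family with many genes on V, at 606 of 1308 (46.3%). The top 10% of the pooled list held 8.06% of receptors (5.12% to 11.95%), 1 ceh gene (1.59%, 0.0402% to 8.53%) and 47 chemoreceptor genes (3.59%, 2.65% to 4.75%). The receptor and chemoreceptor intervals do not overlap in the pooled list. They do overlap in replicate 1, with 6.96% (4.24% to 10.7%) and 3.82% (2.85% to 5.01%), and in replicate 2, with 7.69% (4.82% to 11.5%) and 4.36% (3.32% to 5.61%). On V alone, with 5.39% (2.49% to 9.98%) and 2.70% (1.74% to 3.99%) in the pooled list, they overlap as well. The receptor share was the higher one in each of these comparisons, and overlapping intervals do not show that shares are equal. Replicate 1 ranked 6 ceh genes in its top 10% (9.52%), and replicate 2 ranked 1 there (1.59%), so the replicates differed on the ceh share. The pooled list is made from both replicates, so its match with replicate 2 is not a separate repeat.

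The gene for the tagged protein had no summit. nhr-12 (WBGene00003611, V: 10082133 to 10084049, minus strand) had no relaxed summit in its body or within 1000 bp in any list. The nearest lay 23445 bp from its 5′ end in the pooled list, 20835 bp in replicate 1 and 18513 bp in replicate 2, while the median over receptors was 939, 1064 and 1067 bp. The summit-free stretch around it measured 64551, 61310 and 59624 bp. In the pooled list 9 of 29395 distances between neighbouring summits were as large, itself included, and the median distance was 1950 bp. In replicate 1 there were 7 of 29965, and in replicate 2 there were 6 of 29966. The stretch holds the 5′ ends of 20 protein-coding genes in the pooled list, among them 3 receptors, nhr-12, nhr-205 and nhr-192. Of all protein-coding genes, 137 (0.686%) had their nearest pooled summit at least as far away as nhr-12. Control coverage over this stretch was not analysed here, and any effect of the nhr-12 transgene on peak calling was not tested. The lack of summits is therefore not shown to be a lack of occupancy.

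**Figure D5:**
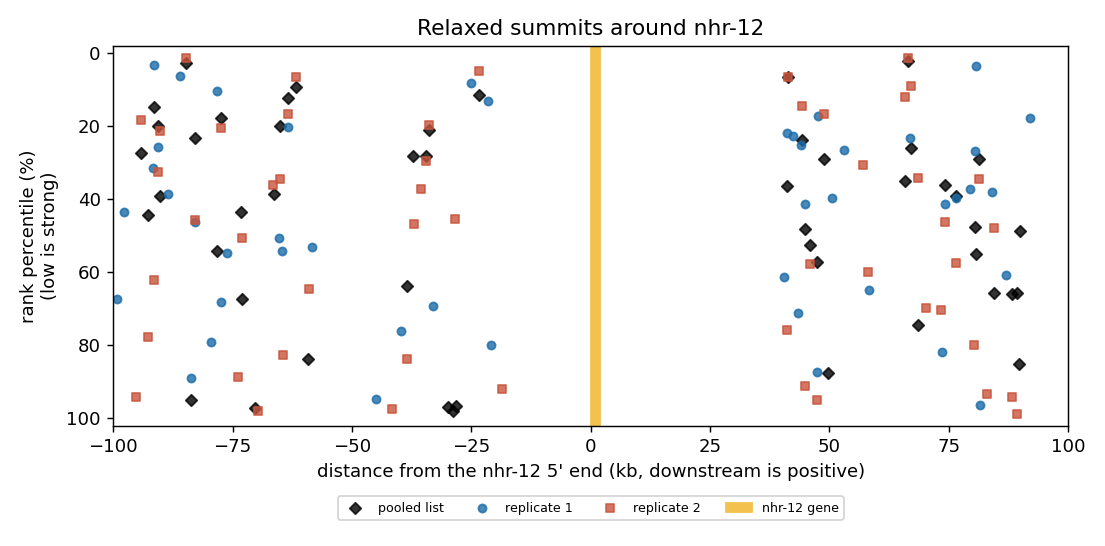
Rank of each relaxed summit as a percentage of list length (y axis, strong at the top) by distance from the nhr-12 5′ end in kb (x axis, downstream positive), for the pooled list and both replicates. The stretch around the gene (bar) is empty in all 3 lists, 59624 to 64551 bp wide.

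Most summits counted for receptors had a receptor as their nearest gene. The 139 genes had 190 distinct pooled summits, of which 15 (7.89%) were also within 1000 bp of another protein-coding gene, and 182 (95.8%) had a receptor as the nearest gene. These shares were not computed over all genes, and choosing summits near a receptor favours a high value. When each summit counted for its nearest gene only, 133 receptors had a pooled summit (139 as reported). The share of all genes was then 41.3% (46.1% as reported). Of the 139 best summits, 73 (52.5%) were intergenic, against 53.7% over all genes, and 42 (30.2%) were in introns, against 26.2%. In coding exons were 17 (12.2%), against 9.60%, and in UTRs 5 (3.60%), against 8.38%. The other 2 (1.44%) were in exons of non-coding genes or pseudogenes, against 2.13%. Upstream of the 5′ end were 60.4% of them, against 63.5% over all genes, and within 500 bp were 54.7%, against 55.6%.

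The classical receptor element was about as rare at these summits as at those of all genes. Motifs were searched on both strands within 50 bases of the best pooled summit. AGGTCA, the half-site of many nuclear receptors, was found at 2 of 139 receptors (1.44%), nhr-85 and nhr-32, and at 1.70% of all genes with a summit. The variant GGGTCA was found at 0 of 139, which allows up to 2.16%, against 0.999% of all genes. For the element AGTTCA the count was 13 (9.35%), against 6.48%. The related AGTCCA was in the windows of 4 receptors (2.88%), against 1.73%, but in replicate 1 its share was 1.56% against 2.35%, and in replicate 2 2.26% against 1.70%. The repeat GAGAGA, shown at nhr-48, was present at 7 (5.04%), against 5.86%. A GATA-type site, TGATAA, was present at 24 (17.3%), against 11.6%. In replicate 1 this site was at 11.7% against 10.2%, and in replicate 2 at 10.5% against 11.8%, so its pooled excess did not repeat. For AGTTCA both replicates lay on the same side, at 9.38% against 6.47% and 9.77% against 6.39%. In the pooled list this excess lay below the top 10%, at 10.3% against 6.69%. Within the pooled top 10% AGTTCA was at 1 of 22 receptors (4.55%), against 5.45%. Replicate 2 had 10.7% against 6.52% below its top 10%, and 1 of 21 (4.76%) against 5.68% within it. Replicate 1 had 8.26% against 6.52% below its top 10%, and 3 of 19 (15.8%) against 6.18% within it. These are matches of letters in summit windows that the 3 lists partly share, not sites, and a window can count for more than 1 motif, as that of nhr-85 did.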

How the data were processed

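ChIP-seq peak lists of eGFP-tagged NHR-12 in L2 larvae, 2 biological replicates of 1 group, were used as the authors deposited them on ce11, the same assembly as WBcel235. Per the submitters' file notes, a relaxed list of peaks and background was made for each replicate and for the replicates together, and a shorter list passed an IDR threshold (IDR measures how alike replicates rank peaks). For the aligner, peak caller, settings and IDR threshold, nothing is stated in those sources. Signal values are the authors' own and not on 1 scale across lists, so they served to rank and describe peaks within a list. The lists held 228 (thresholded), 29431 (pooled), 30000 (replicate 1) and 30000 (replicate 2) peaks, with median signal 49.9, 12.6, 3.70 and 10.7. They carry no read counts, so depth is unknown and no interval that needs it is given.

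Gene positions came from Ensembl release 115 and bases from the RefSeq sequence of WBcel235. Each gene took its strongest summit within 1000 bp of the annotated 5′ end. Intervals are exact (Clopper-Pearson, 95%). The limit given for a count of 0 is instead 3 divided by the number of genes. It is lower than the exact upper end, which was 1.34% for 0 of 273 receptors. Named were receptors with a thresholded summit, the 10 with the best pooled rank, the 10 with the best worse-replicate rank, all conserved receptors, the role groups, nhr-12 and the 4 best pathway genes; other named genes were chosen after their values were seen. The members, lists and comparisons were chosen with earlier results of these data known. The matching of summits to genes was tested on simulated data. Lists on ce10 were not used, and the planned description of receptor proteins was not done. The sequence at 1 further receptor is not reported here. Python 3.11.15, pandas 2.3.3, NumPy 2.4.6, SciPy 1.17.1 and Matplotlib 3.10.9 were used.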

Additional observations from a re-analysis of the deposited data

How the results depend on the processing

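Alternatives were distances of 500 and 2000 bp, all transcript starts, peak intervals in place of summits and the nearest protein-coding gene only. Others were HNF4-like receptors counted as conserved, the upper 50% of each list, other limits for strength and pairing, and each replicate alone. Of 81 values, 55 stayed close to those reported. For counts, close meant within a set fold. For medians and differences it meant a shift below the standard deviation of the values with each replicate left out. The rule is loose: 192 receptors with a pooled summit at 2000 bp (139 as reported) counted as close. So did conserved minus expanded with a pooled summit, 1.16 points at 2000 bp (6.56 as reported). With the upper 50% of peaks, results for the top 10% could not change. At 500 bp the thresholded count was 1, the pooled count 90, both replicates 33, the top 10% 13 and the top 10% of both 4, and conserved minus expanded in the top 10% turned to -5.02. At 2000 bp both replicates gave 146, the top 10% 36, the top 10% of both 12 and the median rank 35.01, against 33.96 for all genes (48 and 40.05 as reported). With the upper 50% of peaks the counts were 0 thresholded, 74 pooled, 33 in both, 39 on V and 13 paired, the median 20.75, against 20.93 for all genes, so the order of both medians turned, and conserved minus expanded 16.6 points (6.56 as reported). The top 5% gave 13 receptors and a difference of 2.51. The median was 42.11 with all transcript starts (38.44 for all genes) and 42 with intervals (38.96). Pairing within 100 bp gave 15 and within 500 bp 41. Leaving out a replicate gave 1 to 4 receptors in the strongest 228 peaks and a median of 41.86 to 46.42 (41.05 and 40.83 for all genes). The alternatives for the top 10% of both replicates were chosen after seeing the data. The cause of these changes was not tested. No paired analysis was possible because there is 1 group. The lists have no depth, the error of a single signal value is unknown, and 2 replicates that rank receptors with rho 0.265 limit every statement on single genes.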
